A study of Mus musculus with 20 samples.

Results

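The natriuretic peptide system was described here through 7 genes of the mouse heart: the peptide genes Nppa and Nppb, the proprotein-cleaving enzymes Corin and Furin, and the receptors Npr1, Npr2 and Npr3. The members were chosen by name, and their symbols were matched to the Ensembl identifiers of a gene count table of 63318 genes. All 7 were found and all 7 passed the filter on low counts, with between 178 counts (Npr3) and 46491 counts (Nppb) in a library. Poly(A) RNA of heart tissue was sequenced on an Illumina instrument in 16 libraries, 4 in each of 4 groups. MI is myocardial infarction, the lasting loss of blood flow to part of the heart, sampled 72 h after surgery. IR is ischemia-reperfusion, with 40 min of "LCA", which the labels do not spell out, and then 72 h of restored flow. MISham and IRSham are the sham operations of MI and IR, for which the labels give no time. MI and MISham tissue held the infarct core with its periphery and IR and IRSham tissue held the core alone, so that injury and sampled region cannot be told apart between the MI pair and the IR pair. No strain, sex or age is given, and no label ties a library to an animal of its own. P-values here therefore weigh a difference only against the spread of libraries within groups, which may be technical. A further 4 long-read libraries, 1 per group, were not analysed here.

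Nppa encodes the precursor of atrial natriuretic peptide and Nppb that of brain natriuretic peptide, hormones that heart muscle releases when its wall is stretched and that lower blood volume and pressure. Corin, a transmembrane serine protease of cardiomyocytes, cuts the Nppa precursor, and Furin, a convertase of the secretory pathway, cuts many precursors including that of Nppb. Npr1 is the guanylyl cyclase receptor for both cardiac peptides, Npr2 is the related cyclase that binds C-type natriuretic peptide, and Npr3 is the clearance receptor, which takes peptides up without a cyclase domain.

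Levels are given as CPM, a gene's count relative to the library total, after TMM, a correction for differences in library composition, and as means ± SD of n = 4 libraries. Library totals ran from 57.2 to 63.1 M counts in MI, 24.3 to 27.6 in MISham, 26.2 to 31.8 in IR and 25.5 to 29.8 in IRSham; the part of the greater depth of MI in the results was not tested. All 12 cardiomyocyte markers tested were lower after MI and after IR, and their summed CPM was 18192 to 32401 in MI against 96704 to 113102 in MISham, and 19574 to 38769 in IR against 101077 to 107311 in IRSham. In bulk tissue, fewer cells of a type and less RNA per cell cannot be told apart. Within the injured groups the sum was highest in MI replicate 3 and in IR replicates 1 and 3. Of the 10 atrial markers listed, Sln was at 0 in all 16 libraries, Bmp10 reached at most 0.0394 CPM and Myl7 at most 0.373 CPM. Kcnk3 (77.8 ± 20.3 CPM in MI, 324 ± 31.9 in MISham) made up most of the summed level of the 10 markers. Of the 6 atrial markers that passed the filter, Dkk3 and Nr2f2 were higher after MI (log2 2.01 and 0.69) and after IR (2.23 and 0.37), as was Nr2f1 after IR (0.43), while Stard10 and Kcnk3 were lower after MI (-1.99 and -2.06) and IR (-1.55 and -1.52). Myl4 held 1.61 to 2.82 CPM in MI, 1.30 to 1.56 in MISham, 1.32 to 3.63 in IR and 1.21 to 1.99 in IRSham. Its log2 fold changes of 0.47 after MI (edgeR, adjusted p = 0.168) and 0.70 after IR (edgeR, adjusted p = 0.0500031) were not called. With DESeq2, 4 of the 6 were called higher after IR in place of 3. The summed level of the 10 atrial markers was 127 to 175 CPM in MI, 345 to 415 in MISham, 147 to 227 in IR and 339 to 360 in IRSham.

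The peptide genes Nppa and Nppb and the convertase Furin rose after both injuries, Corin, Npr2 and Npr3 fell after both, and Npr1 was lower by a small margin that passed the test after IR. By edgeR's quasi-likelihood test with Benjamini-Hochberg adjustment over 19741 genes, called at an adjusted p under 0.05, 6 of 7 members differed between MI and MISham, 3 higher and 3 lower. In the same comparison 64.9% of all genes tested were called, 34.8% higher and 30.2% lower, so that most genes of the table share such a call. Between IR and IRSham all 7 members were called, 3 higher and 4 lower, where 57.7% of all genes were called, 29.5% higher and 28.2% lower. The 4 injured libraries did not overlap the 4 sham libraries for 6 members in the MI pair and for 7 in the IR pair, where the groups of 62.8% and 51.4% of all genes tested did not overlap either. Over all genes tested, log2 fold changes had a median of 0.08 for MI and 0.03 for IR.

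**Figure D1:**
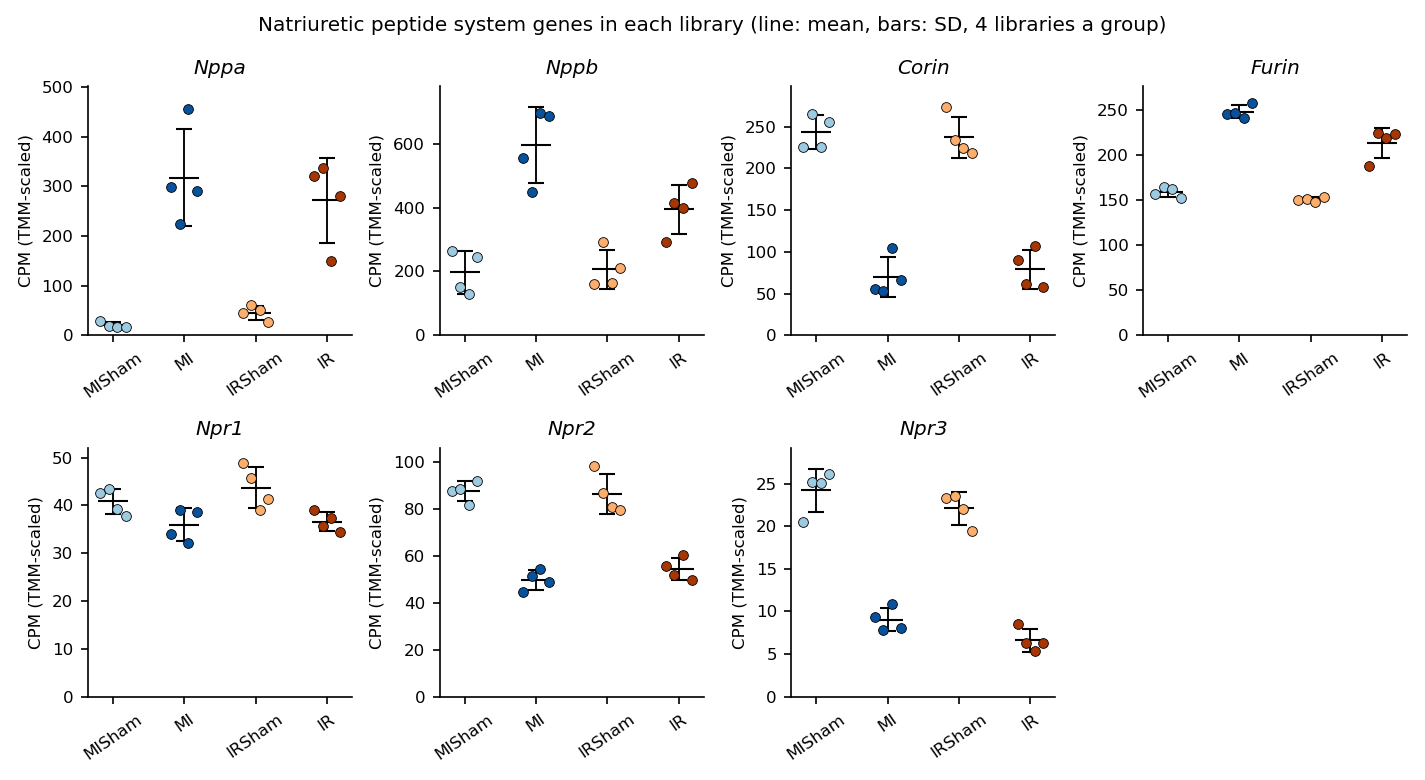
TMM-scaled CPM (y axis, linear from 0, a separate scale for each gene) of the 7 genes in each library (points), with the mean (line) and SD (bars) of the 4 libraries of each group. Nppa, Nppb and Furin are higher, and Corin, Npr2 and Npr3 lower, in the injured groups; the Npr1 groups of the MI pair overlap.

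**Figure D2:**
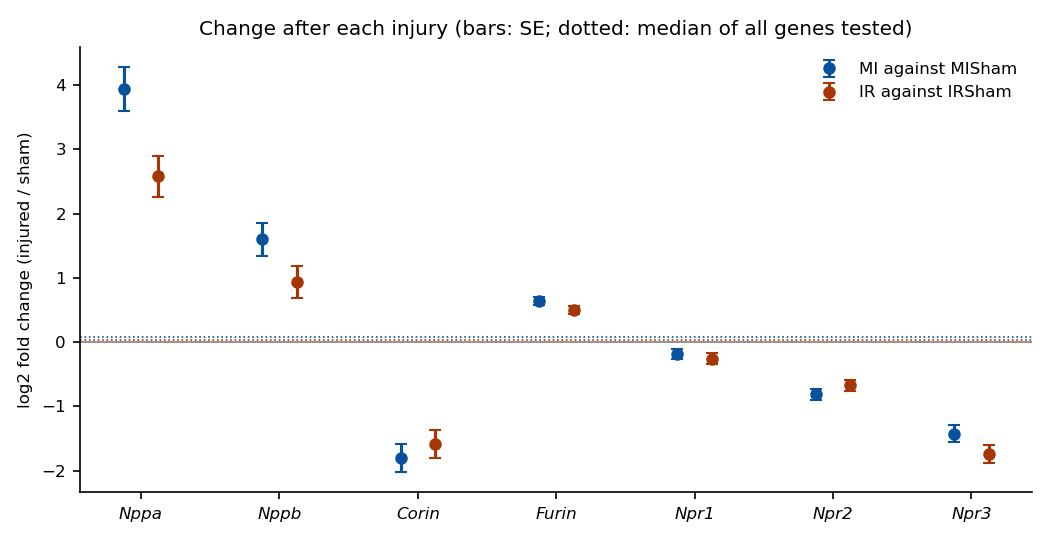
Log2 fold change of each gene (y axis) after MI (blue) and IR (brown) against the matching sham group, with the standard error as bars and the median of all genes tested as dotted lines. Values run from -1.80 for Corin to 3.93 for Nppa in MI, and from -1.74 for Npr3 to 2.58 for Nppa in IR.

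Nppa, ENSMUSG00000041616.10, showed the widest range of the members. Its level was 299, 225, 457 and 292 CPM in MI replicates 1 to 4 and 29.3, 19.1, 17.4 and 17.3 CPM in the MISham replicates. It was 321, 338, 149 and 281 CPM in the IR replicates and 45.4, 60.3, 50.3 and 26.1 CPM in the IRSham replicates. Every injured library lay above every sham library, and MISham replicate 1 stood above the other MISham libraries. The rise was 15.3-fold after MI, or 3.93 ± 0.34 on the log2 scale (± SE here and below for tests; adjusted p = 1.87e-07), and 5.98-fold after IR, 2.58 ± 0.32 (adjusted p = 9.26e-06). By mean CPM the order was MI, IR, IRSham, MISham, whereas in summed TPM, a unit described below, IR stood above MI. MI and IR did not differ beyond their spread (log2 difference 0.22 ± 0.30, adjusted p = 0.739). MISham was lower than IRSham by a log2 difference of -1.13 ± 0.31, which did not pass the adjustment (adjusted p = 0.0814), and 1 MISham library lay above the lowest IRSham library. Nppa had the largest difference of the 7 members between the sham groups, which are the baselines of both fold changes.

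Nppb, ENSMUSG00000029019.9, was more abundant than Nppa in the sham counts and rose less. MI replicates 1 to 4 held 555, 448, 697 and 685 CPM against 264, 152, 128 and 244 CPM in MISham. IR replicates held 292, 415, 397 and 476 CPM against 161, 292, 163 and 211 CPM in IRSham. MI and MISham were far apart, whereas the lowest IR library, replicate 1, lay just above the highest IRSham library at 292.2 and 291.6 CPM. The rise was 3.03-fold after MI (log2 1.60 ± 0.26, adjusted p = 5.91e-05) and 1.91-fold after IR (log2 0.94 ± 0.25, adjusted p = 0.00518). MI and IR levels differed by 0.59 ± 0.25, which did not pass the adjustment (adjusted p = 0.195), and the sham groups differed by -0.07 ± 0.25 (adjusted p = 0.940).

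Nppb and Nppa are neighbours on chromosome 4, with 0 annotated genes between them and their starts 14.8 kb apart in RefSeq's GRCm38.p6. Because the peptide genes rose together, the 250 bases before each start are shown, both on the plus strand, chr4:148000472-148000721 for Nppa and chr4:147985650-147985899 for Nppb, as given by RefSeq for GRCm38.p6. Capitals mark matches on either strand to GATAA (bound by GATA factors), AAGTG (bound by NKX2-5), CATTCC (bound by TEAD factors), TGANTCA (AP-1) and the CArG box of serum response factor, the last by name.
Nppa promoter: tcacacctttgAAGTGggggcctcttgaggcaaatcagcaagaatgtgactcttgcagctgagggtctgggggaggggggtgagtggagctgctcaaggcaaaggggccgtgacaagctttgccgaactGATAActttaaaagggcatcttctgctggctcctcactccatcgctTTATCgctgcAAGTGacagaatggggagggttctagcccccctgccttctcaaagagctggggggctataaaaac
Nppb promoter: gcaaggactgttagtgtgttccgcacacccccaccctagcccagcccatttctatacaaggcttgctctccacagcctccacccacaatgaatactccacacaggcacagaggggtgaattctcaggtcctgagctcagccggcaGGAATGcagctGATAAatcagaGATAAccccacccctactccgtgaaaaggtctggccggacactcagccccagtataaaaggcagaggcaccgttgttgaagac
Counted from the start site, the Nppa window held GATAA matches at -121 and -75 and AAGTG matches at -239 and -65. The Nppb window held GATAA matches at -94 and -83 and a CATTCC match at -105, and no marked stretch overlapped another. Neither window held an AP-1 or CArG match. Of 32851 RefSeq promoter windows of this length, 22.6% held GATAA, 40.7% AAGTG, 12.6% CATTCC, 6.75% TGANTCA and 1.47% a CArG box, so the matches are a description of the windows and not of binding. Of the genes that flank the pair on chromosome 4, 3 are given here, and each had smaller values than Nppa and Nppb. Plod1, a collagen lysyl hydroxylase, had log2 fold changes of 0.68 ± 0.07 after MI and 0.15 ± 0.07 after IR, and 2510039O18Rik had 0.28 ± 0.07 and 0.08 ± 0.07. On the other side, Clcn6, a chloride transporter, had -0.16 ± 0.09 and -0.20 ± 0.09.

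The order of the peptide genes depended on the table. Per length, a count table value of 15.3 ± 4.21 CPM per kb for Nppa stood below 139 ± 47.2 for Nppb in MISham, and 234 ± 72.3 stood below 421 ± 83.2 in MI. In the transcript table, levels are TPM, a length-corrected unit that sums to the same total in every library, added up here over the annotated transcripts of a gene. There Nppa held 185 ± 50.2 TPM and Nppb 229 ± 74.6 in MISham, and Nppa 4015 ± 1176 and Nppb 1199 ± 165 in MI. In IR the values were 4565 ± 1749 for Nppa and 787 ± 214 for Nppb, and in IRSham 416 ± 161 and 257 ± 65.4. Nppb thus led in the counts of MI, IR and IRSham and Nppa in their TPM, while in MISham Nppb led in both tables. The count table gives gene lengths of 1358 bases for Nppa and 1418 for Nppb, against 865 and 781 bases for their only annotated transcripts; the part of this in the order was not tested.

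Within a library, the ratio of Nppa to Nppb does not depend on the scaling of the library. In summed TPM it was 3.01, 3.16, 4.36 and 2.80 in MI replicates 1 to 4 and 0.798, 0.874, 1.00 and 0.636 in MISham. It was 8.43, 6.84, 3.08 and 5.54 in IR and 2.14, 1.55, 2.40 and 0.687 in IRSham. Injured and sham libraries did not overlap in either pair. The log2 ratio was higher by 2.01 in MI and by 1.87 in IR, each with p = 0.0286 in a two-sided exact permutation test, the smallest p that 4 against 4 libraries can give. Adjusted over 9 ratio tests this was 0.0514, short of the threshold. Taken from CPM, the differences were 2.28 and 1.62 with an adjusted p of 0.0429 by the same exact test. The unadjusted p was again 0.0286 for each. The adjusted values thus differ only by how many of the 9 tests reached that smallest p.

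**Figure D3:**
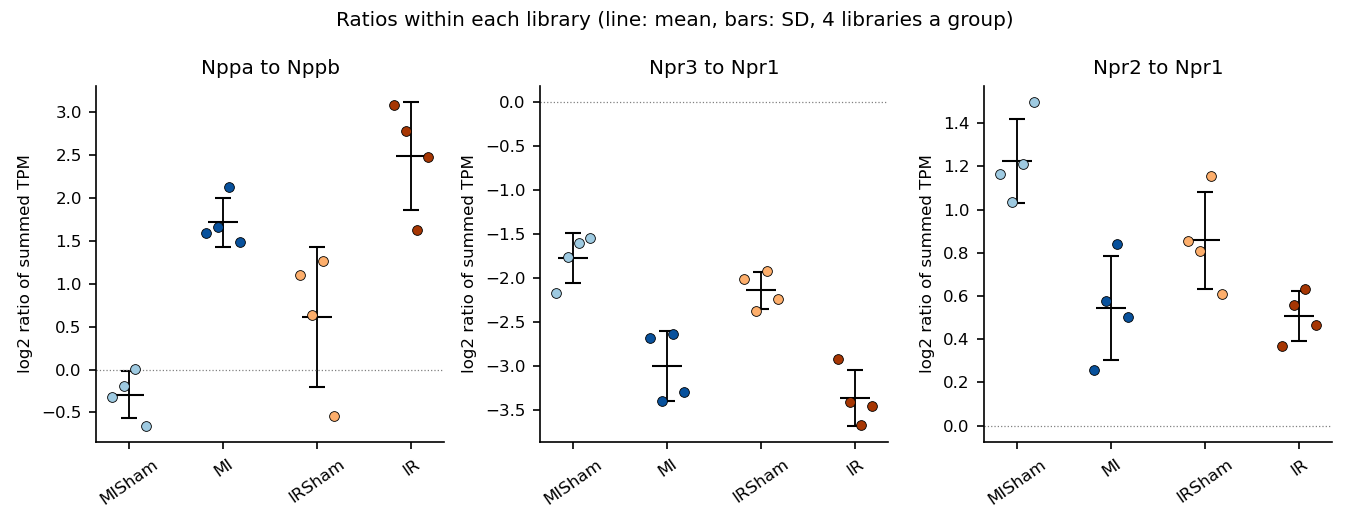
Log2 ratio of summed TPM (y axis) in each library (points) for Nppa to Nppb, Npr3 to Npr1 and Npr2 to Npr1, with the mean (line) and SD (bars) of 4 libraries. Injured libraries lie above sham libraries for Nppa to Nppb and below them for Npr3 to Npr1 in both pairs; for Npr2 to Npr1 the IR and IRSham libraries overlap.

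Corin, ENSMUSG00000005220.11 on chromosome 5, fell to about the same level after both injuries. MI replicates 1 to 4 held 54.9, 53.3, 105 and 66.1 CPM against 226, 265, 226 and 256 CPM in MISham. IR replicates held 89.9, 61.6, 107 and 57.8 CPM against 273, 234, 224 and 218 CPM in IRSham. Every injured library was lower than every sham library, and the highest injured libraries were MI replicate 3 and IR replicates 1 and 3, those with the most cardiomyocyte marker counts. The fall was 3.49-fold after MI (log2 -1.80 ± 0.22, adjusted p = 3.80e-06) and 3.01-fold after IR (log2 -1.59 ± 0.22, adjusted p = 1.88e-05). Without IR replicates 1 and 3, the IR change was -1.99 on the log2 scale. These are the IR libraries highest in Corin, so leaving them out deepens the fall by construction. Neither MI and IR (adjusted p = 0.703) nor the sham groups (adjusted p = 0.963) differed beyond their spread.

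Furin, ENSMUSG00000030530.16 on chromosome 7, varied little between libraries of a group and rose after both injuries. MI replicates held 246, 247, 241 and 258 CPM against 156, 165, 163 and 153 CPM in MISham. IR replicates held 188, 224, 219 and 223 CPM against 150, 151, 148 and 154 CPM in IRSham. The ranges of injured and sham libraries were well apart, with IR replicate 1 lower than the rest of its group. The rise was 1.56-fold after MI (log2 0.64 ± 0.06, adjusted p = 1.13e-07) and 1.41-fold after IR (log2 0.50 ± 0.06, adjusted p = 2.96e-06). Furin was the member called between MI and IR, higher in MI by 0.22 ± 0.06 (adjusted p = 0.0441), in a comparison that called 6.97% of all genes. The MI and IR ranges of Furin did not overlap, which also held for 14.4% of all genes tested, and those of the other 6 members did. That call was lost under 5 other settings, among them library size alone and summed TPM, and when IR replicate 4 or any 1 of the MI libraries was left out. The sham groups of Furin differed by 0.08 ± 0.06 (adjusted p = 0.652).

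Among the receptors, Npr3 fell most. Npr3, ENSMUSG00000022206.8 on chromosome 15, held 9.37, 7.88, 10.9 and 8.06 CPM in MI replicates 1 to 4 against 20.5, 25.1, 25.1 and 26.2 CPM in MISham. It held 8.57, 6.30, 5.37 and 6.34 CPM in IR against 23.3, 23.5, 22.1 and 19.4 CPM in IRSham. The highest injured library was below the lowest sham library in both pairs. The fall was 2.68-fold after MI (log2 -1.42 ± 0.14, adjusted p = 1.12e-07) and 3.33-fold after IR (log2 -1.74 ± 0.14, adjusted p = 5.90e-08). MI stood above IR by 0.45 ± 0.14, short of the threshold (adjusted p = 0.0654).

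Npr2, ENSMUSG00000028469.16 on chromosome 4, held 44.5, 51.4, 54.5 and 48.8 CPM in MI and 87.6, 88.6, 81.6 and 91.9 CPM in MISham. It held 55.8, 51.9, 60.2 and 49.5 CPM in IR and 98.4, 87.0, 80.9 and 79.7 CPM in IRSham. All injured libraries were lower than all sham libraries. The fall was 1.76-fold after MI (log2 -0.81 ± 0.08, adjusted p = 1.71e-07) and 1.59-fold after IR (log2 -0.67 ± 0.08, adjusted p = 2.48e-06), and MI and IR did not differ beyond their spread (adjusted p = 0.421). On the scale of summed TPM, log2(TPM + 1) in limma, the Npr2 changes were -0.13 and -0.04 and did not pass (adjusted p = 0.336 and 0.775).

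Npr1, ENSMUSG00000027931.13 on chromosome 3, changed least. It held 34.0, 39.1, 32.2 and 38.6 CPM in MI and 42.7, 43.5, 39.3 and 37.8 CPM in MISham, with 1 MISham library inside the MI range. It held 39.0, 35.7, 37.3 and 34.4 CPM in IR and 48.8, 45.7, 39.1 and 41.4 CPM in IRSham, where the groups came within 0.1 CPM of each other without overlap. The difference was -0.18 ± 0.08 after MI, which was not called (adjusted p = 0.0641), and -0.26 ± 0.08 after IR, which was (adjusted p = 0.0147), and without IRSham replicate 1 the latter was -0.20 with an adjusted p of 0.0632. The sign of both Npr1 values turned with the scaling. With library size alone they were 0.13 and 0.03 (adjusted p = 0.174 and 0.732), and with summed TPM 0.51 and 0.29 (adjusted p = 0.000334 and 0.0208).

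The receptor ratios are free of that scaling. In summed TPM, Npr3 was 0.156, 0.0946, 0.161 and 0.102 of Npr1 in MI replicates 1 to 4 and 0.221, 0.295, 0.329 and 0.342 in MISham. It was 0.132, 0.0939, 0.0785 and 0.0913 of Npr1 in IR and 0.247, 0.192, 0.265 and 0.211 in IRSham. The clearance receptor was the scarcest of the 3 receptors in every library, and its share of Npr1 was lower in each injured library than in any matching sham library. The log2 ratio was lower by -1.23 in MI and -1.23 in IR, each with p = 0.0286 by the exact permutation test and 0.0514 after adjustment over 9 tests. The Npr2 to Npr1 ratio ran from 1.20 to 1.79 in MI and 2.05 to 2.82 in MISham, a log2 difference of -0.68 (exact p = 0.0286, adjusted 0.0514). It ran from 1.29 to 1.55 in IR and 1.53 to 2.23 in IRSham, a difference of -0.35 (exact p = 0.0571, adjusted 0.0735). Taken from CPM, the 4 receptor ratio differences each had p = 0.0286 by the same exact test and 0.0429 after adjustment, a value set by how many of the 9 tests reached that p. Between the sham groups no ratio passed, with adjusted p from 0.0735 to 0.114 by exact test.

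The scaling of the libraries moved the fold changes of all genes together. The all-gene median after MI was 0.08 with TMM, 0.03 with the size factors of DESeq2, 0.39 with library size alone and 0.70 with summed TPM, and after IR it was 0.03, 0.03, 0.32 and 0.57. Relative to the median of its own scale, each member kept its sign on all 4 scales. After MI, Nppa stood 3.73 to 3.86 above the median, Nppb 1.51 to 1.72 and Furin 0.56 to 0.80. Npr1 stood at -0.27 to -0.19, Npr2 at -0.90 to -0.83, Npr3 at -1.51 to -1.20 and Corin at -1.89 to -1.82. After IR, Nppa stood 2.55 to 2.90 above the median, Nppb 0.90 to 1.02, Furin 0.47 to 0.60, Npr1 at -0.29 on each scale, Npr2 at -0.70 to -0.61 and Corin at -1.62 to -1.54. Npr3 had the widest spread after IR, with -1.77 on the 3 count scales and -1.21 with summed TPM, taken as log2(TPM + 1). As a direct ratio of mean summed TPM, without the added 1, Npr3 stood at -1.59 after IR and -1.50 after MI. Those 2 values are relative to the median ratio of 13622 genes.

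**Figure D4:**
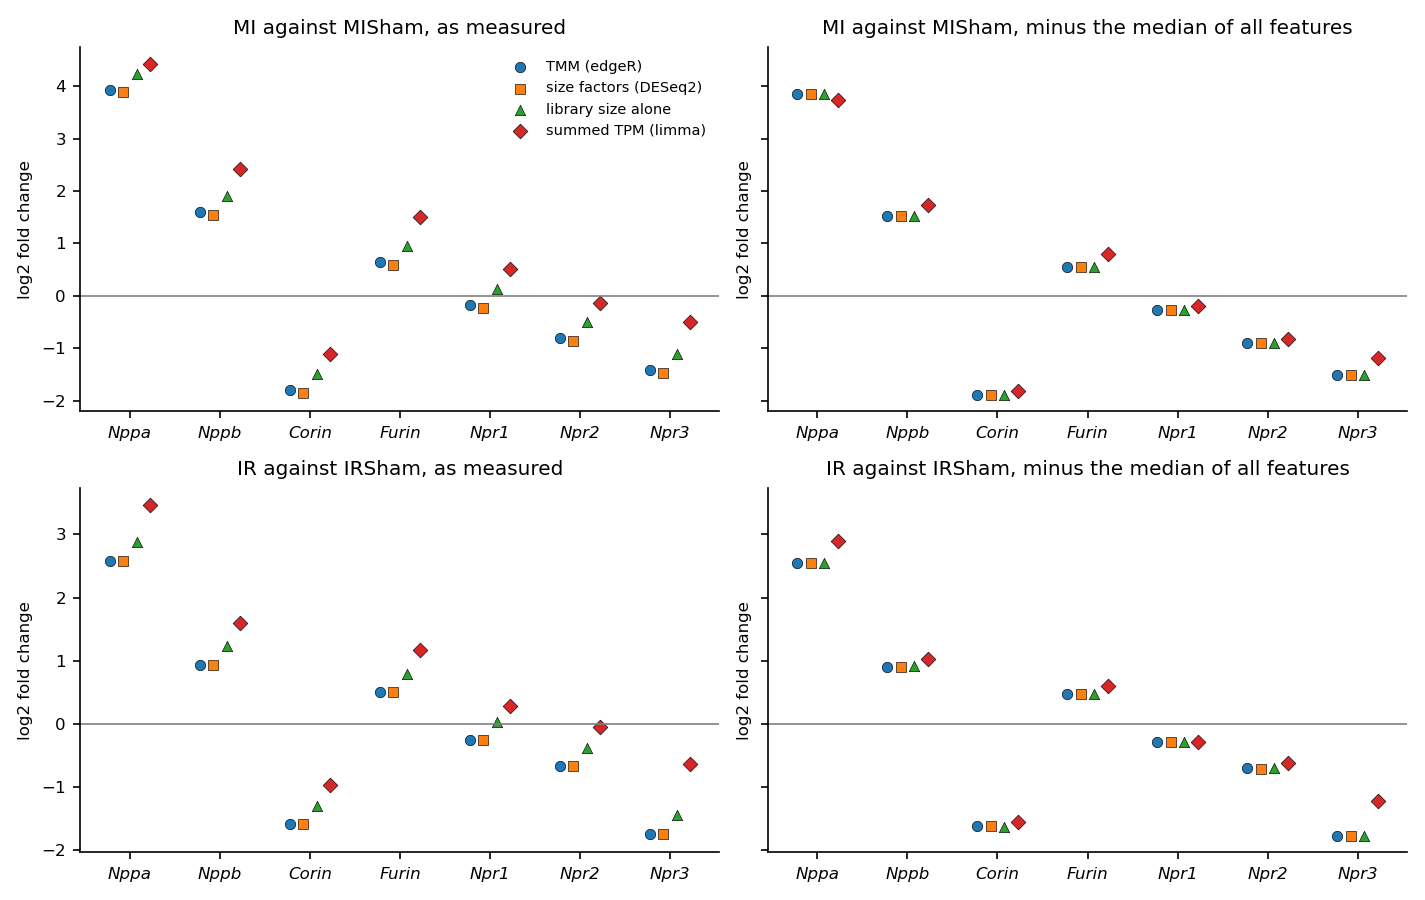
Log2 fold change (y axis) of each gene under 4 scalings (markers), as measured (left) and minus the median of all features tested on the same scale (right), for MI (top) and IR (bottom). On the left the Npr1 points lie on both sides of 0. On the right each gene keeps its sign, and summed TPM, fitted as log2(TPM + 1), stands apart most for Npr3 after IR (-1.21 against -1.77).

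Whether the injuries differed was tested as the difference of their log2 fold changes. None of the 7 members was called by edgeR's test, in a comparison that called 0.192% of genes, and 1 of 7 had an unadjusted p under 0.05. That member was Nppa, whose rise was larger after MI by 1.35 ± 0.43 (edgeR, adjusted p = 0.179). DESeq2 called it (1.30, adjusted p = 0.0433). As given above, the Nppa levels of MI and IR were close and the sham levels were farther apart. Nppb had a difference of 0.66 ± 0.36 (adjusted p = 0.402), Npr3 0.31 ± 0.20 (0.468), Furin 0.14 ± 0.09 (0.472), Npr1 0.07 ± 0.12 (0.814), Npr2 -0.14 ± 0.12 (0.595) and Corin -0.21 ± 0.30 (0.784). Between MISham and IRSham edgeR's test called 0 of 7 members, where 3.20% of genes were called, and DESeq2 called 1, Nppa, which was also the member with an unadjusted p under 0.05.

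Of 37 annotated transcripts of the members, 15 had a mean of at least 1 TPM and were tested with limma on log2(TPM + 1), a scale that understates changes of low transcripts. After MI 5 were higher and 3 lower, where 59.0% of all transcripts were called, and after IR also 5 and 3, where 51.7% were called. The median transcript rose by 0.60 and 0.48 on this scale. Nppa-201 and Nppb-201, the only annotated transcripts of the peptide genes, rose by 4.43 ± 0.36 and 2.43 ± 0.25 after MI and by 3.47 ± 0.36 and 1.60 ± 0.25 after IR. Npr3-201 fell by 0.41 ± 0.13 after MI (adjusted p = 0.0116) and by 0.67 ± 0.13 after IR (adjusted p = 0.000465). The change of 0 transcripts differed between the injuries, where 0.0840% of all transcripts were called, and 1 had an unadjusted p under 0.05.

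Of the Corin transcripts 2, both coding, passed the filter, and both fell. Corin-201 went from 25.5 ± 2.33 TPM in MISham to 12.6 ± 3.25 in MI, and Corin-202 from 13.7 ± 1.59 to 5.59 ± 2.31. Corin-201 held 69.2% of the annotated TPM of the gene in MI and 63.8% in MISham. For Furin, the 4286-base Furin-203 held 71.0% in MI and 83.2% in MISham, and the 339-base Furin-206 held 20.0% and 9.86%. Those usage changes, -12.2 ± 4.07 and 10.1 ± 3.66 percentage points, were not called by limma (adjusted p = 0.0900 and 0.117). Of 11 member transcripts tested for usage, 0 were called after MI, where 5.73% of all transcripts were called with a change of at least 10 points, and 0 after IR, where 3.59% were called. At an unadjusted p under 0.05 there were 2 after MI and 0 after IR.

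Levels were also set against cardiomyocyte RNA. The marker sum was lower in every injured library, so this division raises the difference of every member, and the values are given as a description. For Corin and for Npr3 after IR the sign depended on the markers used. Per 1000 CPM of the 12 cardiomyocyte markers, Nppa held 13.6 ± 1.96 CPM in MI against 0.201 ± 0.0632 in MISham, a log2 difference of 6.11, and 10.7 ± 5.68 in IR against 0.438 ± 0.141 in IRSham, a difference of 4.50. Nppb held 26.0 ± 3.72 against 1.90 ± 0.673 after MI (3.83) and 15.6 ± 7.29 against 1.98 ± 0.593 after IR (2.88). Corin held 2.95 ± 0.228 in MI against 2.34 ± 0.0406 in MISham, a difference of 0.33 (exact permutation test, adjusted over 14 tests, p = 0.0333), and 2.80 ± 0.372 in IR against 2.28 ± 0.193 in IRSham, 0.29 (exact test, adjusted p = 0.0615). Per Tnnt2, Tnni3 and Actc1 alone it was -0.25 after MI (exact test, adjusted p = 0.0333) and -0.20 after IR (0.371). The receptors and Furin are also made by other cells of the heart, which this ratio does not take into account. Their differences after MI and IR were 2.00 and 1.67 for Npr1, 1.37 and 1.25 for Npr2 and 2.83 and 2.42 for Furin, and for Npr3 0.76 (exact test, adjusted p = 0.0333) and 0.17 (0.514). Per Tnnt2, Tnni3 and Actc1, Npr3 was at 0.17 after MI (exact test, adjusted p = 0.308) and -0.32 after IR (0.0333). Endothelial and endocardial markers summed to 1751 to 1819 CPM in MI, 1417 to 1547 in MISham, 1175 to 1652 in IR and 1425 to 1553 in IRSham, and fibroblast markers to 8431 to 10278, 2774 to 4873, 10746 to 11865 and 4063 to 4592 in the same order. Of 11 endothelial markers 4 were higher and 3 lower after MI and 2 and 5 after IR, and of 8 fibroblast markers 5 and 2 after MI and 6 and 1 after IR. All 7 macrophage markers were higher after both injuries, and of 5 neutrophil markers 4 were higher after MI and 2 after IR. Of 8 mural markers 4 were higher and 4 lower after MI and 2 and 4 after IR, of 7 epicardial markers 2 and 0 after MI and 2 and 2 after IR, and of 3 conduction system markers tested 1 was higher and 2 lower after each. Among all genes tested, 34.8% were called higher and 30.2% lower after MI, and 29.5% and 28.2% after IR. The part of these cell types in the members' results was not tested.

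**Figure D5:**
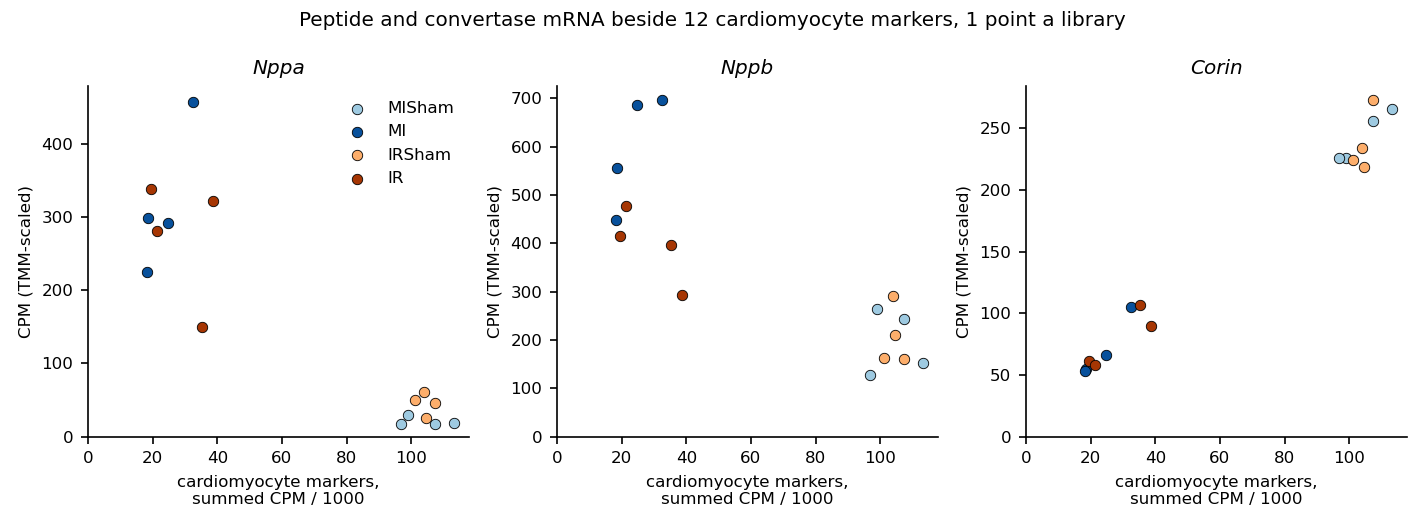
CPM of Nppa, Nppb and Corin (y axis, linear from 0) against the summed CPM of 12 cardiomyocyte markers divided by 1000 (x axis, linear from 0), 1 point a library, coloured by group. Injured libraries, with marker sums of 18192 to 38769 CPM, hold the high Nppa and Nppb and the low Corin values, to the left of all sham libraries.

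Genes that act around the members moved in both directions, as did all genes tested. Of 25 other genes of the pathway (convertases, degrading enzymes, cGMP-dependent kinases, phosphodiesterases, soluble cyclases and kinase targets), 22 passed the filter. After MI 7 were higher and 9 lower, and after IR 6 were higher and 7 lower, with medians of -0.02 and 0.03 beside 0.08 and 0.03 for all genes. Among all genes tested, 34.8% were called higher and 30.2% lower after MI, and 29.5% and 28.2% after IR. With library size alone the counts were 10 higher and 5 lower after MI and 11 and 3 after IR, where the all-gene median was 0.39 and 0.32. Pde1a, a calcium-dependent phosphodiesterase, rose from 10.1 to 32.5 CPM after MI (log2 1.68 ± 0.12) and from 13.4 to 32.5 after IR (1.28 ± 0.12). Prkg2, a cGMP-dependent kinase, was at or below 1.31 CPM on average in each group and higher after MI (2.16 ± 0.47) and IR (2.48 ± 0.50). Vasp, an actin regulator that such kinases phosphorylate, rose by 1.31 ± 0.10 after MI and 0.78 ± 0.10 after IR. Pde3b rose by 1.11 ± 0.12 after MI and 0.93 ± 0.12 after IR.

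Among those lower, Mme, the protease neprilysin that degrades natriuretic peptides, fell from 14.3 to 3.10 CPM after MI (log2 -2.20 ± 0.23, adjusted p = 2.06e-07) and from 11.2 to 6.52 CPM after IR (-0.78 ± 0.22, adjusted p = 0.00609). The difference of the Mme changes, -1.43 ± 0.31, was not called (adjusted p = 0.0678), and the Mme fall after IR was not called with library size alone (-0.49) or summed TPM (-0.10). Pde1c fell by 1.76 ± 0.24 after MI and 1.26 ± 0.23 after IR. Pde3a, a cGMP-inhibited phosphodiesterase, fell by 1.46 ± 0.16 after MI and 1.03 ± 0.16 after IR. Pde2a, activated by cGMP, had low levels, 0.341 CPM in MI and 1.31 in MISham, and fell by 1.93 ± 0.45 and 2.07 ± 0.47. Pcsk6, the convertase that activates corin, named after its values were seen, fell by 1.31 ± 0.13 after MI and 0.41 ± 0.13 after IR. The latter turned to 0.20 with summed TPM without a call. The all-gene median after IR was 0.32 with library size alone and 0.57 with summed TPM. Nppc, which encodes C-type natriuretic peptide, the ligand of Npr2, did not pass the filter: it had at most 0.353 CPM and was at 0 in 9 of 16 libraries. Ostn, whose product binds Npr3, was at 0 in 14 of 16.

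Of 26 genes known to act on Nppa or Nppb, 18 were lower and 6 higher after each injury, with medians of -0.77 after MI and -0.63 after IR beside 0.08 and 0.03 for all genes. Among all genes tested, 30.2% were called lower and 34.8% higher after MI, and 28.2% and 29.5% after IR. On the scale of summed TPM the median list member was at 0.01 and -0.02, with 9 higher and 6 lower after MI and 9 and 4 after IR; relative to the all-gene median of that scale it was at -0.69 and -0.60. Lower were Klf15, a repressor of hypertrophic genes (log2 -3.07 ± 0.39 after MI, -2.23 ± 0.38 after IR), Tbx5 (-1.88 ± 0.24, -1.40 ± 0.24) and Irx4, a ventricular homeobox factor (-1.76 ± 0.21, -1.57 ± 0.21). Higher were Atf3, a stress-induced factor (2.30 ± 0.27, 1.83 ± 0.27), Fos (1.47 ± 0.46, 1.68 ± 0.47) and Nfatc4, a target of calcineurin (0.84 ± 0.15, 0.94 ± 0.15). Gata4, Nkx2-5 and Tead1 were named after their values were seen, because their motifs were searched above. They had -0.77 ± 0.11, -0.88 ± 0.13 and -0.66 ± 0.08 after MI and -0.77 ± 0.11, -0.72 ± 0.13 and -0.41 ± 0.08 after IR, beside the lower cardiomyocyte markers, whose part in these values was not tested. With summed TPM Tead1 turned to 1.13 after MI and 0.66 after IR, both called by limma, and Gata4 and Nkx2-5 were not called after MI (-0.09 and -0.16), nor Nkx2-5 after IR (-0.09).

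Of 14 other cardiac stress genes, 11 were higher and 0 lower after MI (median 1.46), and 7 were higher and 3 lower after IR (median 0.12). Among all genes tested, 34.8% were called higher and 30.2% lower after MI, and 29.5% and 28.2% after IR. With summed TPM the counts were 14 and 0 after MI and 7 and 0 after IR, on a scale whose all-gene median was 0.70 and 0.57. Relative to the all-gene median, the median list member was at 1.34 and 0.13 with summed TPM and at 1.37 and 0.08 with TMM. Gdf15, a stress cytokine, rose by 3.59 ± 0.33 after MI and 2.81 ± 0.32 after IR. Ccn2 rose by 3.40 ± 0.18 after MI and 2.80 ± 0.18 after IR. Ankrd2 rose by 3.15 ± 0.38 after MI and 0.83 ± 0.33 after IR, and Uchl1 by 2.45 ± 0.15 and 2.27 ± 0.15. Myh7, the slow myosin heavy chain often read beside Nppa and Nppb, depended on the scale. In CPM it fell by 1.46 ± 0.41 after IR (adjusted p = 0.00741) and had -0.31 ± 0.40 after MI (adjusted p = 0.524), whereas in summed TPM it rose by 1.40 ± 0.52 after MI (limma, adjusted p = 0.0220) and had -0.46 ± 0.52 after IR (0.429). Mean Myh7 levels were close in the injured groups, 373 CPM in MI and 343 in IR. They were 462 CPM in MISham and 943 in IRSham (log2 -1.03 ± 0.41, edgeR, adjusted p = 0.258). Mt1 and Xirp1 fell in CPM by 0.85 ± 0.18 and 0.45 ± 0.12 after IR. In summed TPM they had -0.23 and 0.13 after IR, not called, and after MI 0.54 and 0.38, called by limma. Each of these values lay below the all-gene median of that scale. The list holds 1 gene whose change differed between the injuries, Acta2, smooth muscle actin (difference 2.63 ± 0.30, adjusted p = 0.00605), which rose by 2.39 ± 0.22 after MI and had -0.24 ± 0.21 after IR. Its injured levels were close, 385 CPM in MI and 304 in IR, and its sham levels far apart, 73.6 CPM in MISham and 360 in IRSham (log2 -2.29 ± 0.22, adjusted p = 4.50e-06). Ankrd2 and Ankrd1 were also lower in MISham than in IRSham, by -2.04 ± 0.39 and -0.80 ± 0.19.

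For each member, the genes with the most similar profile were taken as those with the smallest root mean square difference of centred log2 CPM over the 16 libraries. The measure rewards genes with the same group means, and the libraries share their groups and depth. For Corin these were Pnpla2, a triglyceride lipase (0.09), Plin4, a lipid droplet protein (0.09), and Acadl, an enzyme of fatty acid oxidation (0.10), against a spread of Corin itself of 0.95. For Furin they were Sec24b (0.06), Cct2 (0.06) and Nsun2 (0.07), against 0.31, and for Npr2 Oat (0.07), Gaa (0.07) and Bag1 (0.08), against 0.40. Npr3 had Ccdc85c, Mypn and Gsta4 (each 0.23, against 0.85), and Npr1 had Dgcr2, Dmac1 (each 0.08) and Clstn1 (0.09), against 0.16. The peptide genes had larger distances. For Nppb the nearest were March3 (0.28), Tnfrsf12a (0.29) and Alg8 (0.30), against 0.79, and for Nppa 5830416I19Rik (0.47), Cdca5 (0.50) and Ada (0.51), against 1.78. The nearest of these to Nppa had fitted log2 fold changes of 7.17 after MI and 2.97 after IR, and Cdca5 and Ada had 3.11 and 3.16 after MI.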

How the data were processed

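Poly(A) RNA of 16 heart tissue libraries was analysed from 2 deposited tables. The gene table holds raw counts as deposited by the authors, and the transcript table holds TPM as deposited by the authors. Tools listed in the submitters' processing notes, without a role, are kallisto 0.50.1, featureCounts 2.0.1, HISAT2 2.2.1 and SAMtools 1.7, with the build GRCm39; the strand setting and annotation release are not given in the sources used here. Effective length and estimated counts in the deposited transcript file, 2 columns that name no sample, were not used.

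For genes the test was that of edgeR 4.0.16 under R 4.3.3 (TMM, filterByExpr with a minimum count of 10 and total of 15, robust quasi-likelihood, 1 mean per group over 16 libraries, Benjamini-Hochberg adjustment). The SE is the log2 fold change over the square root of F. Transcripts were tested with limma 3.58.1 on log2(TPM + 1), and usage as the percent of a gene's annotated TPM (summed TPM of at least 5, transcripts with a share of at least 5%). GENCODE M21 paired identifiers with names for 52080 of 63318 genes and for 138329 of 163740 transcripts. Alternatives used DESeq2 1.42.0, other scalings and filters, and left-out libraries. Scripts were tested on simulated data. No replicate pair agreed within sampling noise. The members and gene lists were chosen with earlier results of these data known. All 7 members are named in each comparison; from each list up to 3 called genes in each direction with the largest change are named, and for each member the 3 genes with the most similar profile. Lists of atrial, endothelial, fibroblast, mural, epicardial, macrophage, neutrophil and conduction system markers were also counted.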

Additional observations from a re-analysis of the deposited data

Results flagged for a closer look

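Of the 7 genes in the 4 groups, in CPM and in summed TPM, 3 sets of 4 libraries held a library far from the other 3, and chance flags about 1 in 20 such sets. Nppa in MISham had its highest library, replicate 1, at 29.3 CPM while the others lay between 17.3 and 19.1 CPM, and the same library stood apart in summed TPM at 260 TPM, where the others held 158 to 161. These are the same RNA measured in 2 tables. Without MISham replicate 1 Nppa was called between MISham and IRSham. That replicate is the MISham library highest in Nppa, so leaving it out widens the difference by construction. Furin in IR had its lowest library, replicate 1, at 188 CPM, below 219 to 224 CPM in the other 3.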

How the results depend on the processing

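The directions and calls of Nppa, Nppb, Npr3, Corin and Furin after MI and after IR held under all 15 alternatives of each comparison, among them DESeq2, library size alone, no filter on low counts, fits of the compared groups alone, summed TPM and each left-out library; Npr2 lost its calls with summed TPM. Npr1 turned to 0.13 (MI) and 0.035 (IR) with library size alone and to 0.51 and 0.29 with summed TPM. After MI it was called by DESeq2 (adjusted p = 0.0144), in the fit of the compared groups alone, and without MI replicate 2 or MISham replicate 4. These are the MI library highest and the MISham library lowest in Npr1, so leaving either out widens the Npr1 difference by construction. The Corin difference between the injuries turned to 0.16 when IR replicates 1 and 3, the IR libraries highest in Corin, were left out. Members called in that difference were 1 with DESeq2 in place of 0. Between MISham and IRSham they were 1 with DESeq2 and 0 to 1 with a library left out (1 without MISham replicate 1 or IRSham replicate 4). Those are the MISham library highest and the IRSham library lowest in Nppa, so leaving either out widens the Nppa difference by construction. Between MI and IR they were 0 with library size alone, the compared groups alone, the replicate block, summed TPM or IR replicates 1 and 3 left out, and 0 to 1 with a library left out, 0 without any 1 MI library or IR replicate 4.

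All genes called in the difference of the injuries numbered 38, against 511 with DESeq2, 117 without the filter, 10 with the replicate block, 1096 without MISham replicates 1 and 3, 129 without IR replicates 1 and 3, 18 with summed TPM, and 3 to 282 with a library left out. Between the sham groups they were 632, against 963 with DESeq2, 1674 without MISham replicates 1 and 3 and 20 with summed TPM. Between MI and IR they were 1376, against 166 with summed TPM and 857 to 1868 with a library left out. The causes were not tested. No label says that a replicate number pairs libraries. Deviations of same-numbered libraries correlated between -0.06 and 0.05 in the injury pairs. Between MI and IR they correlated from -0.15 to 0.23, and between the sham groups from -0.15 to 0.06. Such values cannot show whether libraries were paired. Apart from the Furin call between MI and IR, the block changed no call of a member.

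Ratios from CPM gave 2.28, 1.62, -1.24, -1.50, -0.63 and -0.42 for Nppa to Nppb, Npr3 to Npr1 and Npr2 to Npr1 in MI and IR, with an adjusted exact p of 0.0429. Per Tnnt2, Tnni3 and Actc1, Corin gave -0.25 (MI) and -0.20 (IR) and Npr3 0.17 (MI) and -0.32 (IR), against 0.76 and 0.17 with all markers. Each group held 4 libraries, and the members had between 178 counts (Npr3) and 46491 counts (Nppb) in a library. The part of counting noise in the precision of the members was not tested.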
